A study of Mus musculus with 12 samples.

Results

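The probes described here are those that changed less than 2-fold with inflammatory activation of BV2 cells, by the median of the activated arrays. They were also brighter when the activated cells were given compound E29. They were chosen from the values themselves, on the processed signals the authors deposited, with every value below 50 raised to 50 and log2 taken. A probe was a member if the median of the 11 activated arrays lay within 1 log2 unit of the non-activated control, and if E29 lay at least 1 log2 unit (2-fold) above both controls. The rule found 213 of the 25697 probes on the array, 0.829% of them, out of 24250 probes that met the first condition. The members comprise 197 probes of 174 named genes and 16 probes without a gene symbol.

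BV2 is an immortalised mouse microglial line, and total RNA from it was hybridised to 12 single-colour Illumina bead arrays, 1 per condition. The non-activated control had no stimulus. The activated control received 1 µg/ml lipopolysaccharide (LPS, a bacterial outer membrane component) and 10 ng/ml interferon-γ (IFN-γ). The other 10 arrays held cells activated in the same way and treated for 4 h with 1 of 10 compounds, namely E29 or 1 of E33, E23, E21, E20, E19, E18, E14, E5 and E4. The time was 4 h for both controls as well. The sources used here name no identity, dose or vehicle for them, so they appear by code only. All cultures came from the 1 cell line, and no condition had a replicate, so no comparison carries a p-value or a standard deviation and no difference has a replicate check.

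Microglia are the resident macrophages of the brain. LPS signals through Toll-like receptor 4 to NF-κB and MAP kinases, and together with IFN-γ it switches on a large set of cytokine, chemokine and antimicrobial genes within hours. The members lie, by the way they were chosen, largely outside that set. Of the 174 genes, 100 could be placed in 11 groups by their known roles, the largest being DNA replication, repair and mitosis (16 genes), immune effectors (15), clustered histones (12), transcription factors (11) and metabolism (11).

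Each array detected 8538 to 9493 probes at a detection p-value under 0.01, and E29 detected 8651. All levels below are log2 signals after background correction and quantile normalisation, and a value under an array's detection floor (5.47 to 5.84) was raised to that floor. Where the dimmer array did not detect a probe, the fold is a bound and is written "at least". Of 8 microglial markers on the array, Aif1, Ptprc, Trem2 and Tyrobp were detected on all 12 arrays, whereas Tmem119 and P2ry12 were detected on none. No marker of astrocytes, neurons, fibroblasts, endothelium or T cells was detected on any array, and 1 of 4 oligodendrocyte markers was detected on at least 1 array but read no higher than the detection floor on the controls and E29. In bulk RNA, fewer cells expressing a gene and less RNA per cell cannot be told apart, and quantile normalisation would hide a change in the total RNA of a culture.

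The values that chose the members are given here as a description only. On the processed values the smaller of the differences from the 2 controls had a median of 1.27, with quartiles of 1.09 and 1.51 and a highest value of 4.24; 54 members exceeded 1.5 and 20 exceeded 2. Just inside the threshold stood Pnpla8, Rasgrf1 and Kansl1l, each at 1.00, and just outside it Matr3 at 0.99 and Leng1 and Pkig, each just under 1.00. Over all 25697 probes, 229 (0.891%) were at least 2-fold above both controls by this measure. The 213 members are those of them that were also activation-neutral, a condition that 94.4% of all probes met.

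On the normalised scale the members had a median level of 5.95 on the non-activated control, 5.86 on the activated control and 7.44 on E29, while on the 9 other compound arrays the medians lay between 5.95 and 6.06. The median rise of E29 over the activated control was 1.25 (2.38-fold), with quartiles of 1.06 and 1.69 and a range of 0.62 to 4.02. Against the non-activated control the median rise was 1.37 (2.58-fold). The rise was at least 2-fold against both controls for 168 members, at least 1.5 log2 units for 50, at least 2 for 16 and at least 3 for 1, against 2.02% of all 10240 probes tested at the 2-fold limit; the rule used this contrast. The remaining 45 members, though chosen as raised, were under 2-fold against at least 1 control on this scale.

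Many members were faint without E29. E29 detected all 213, the activated control 125 and the non-activated control 143. Neither control detected 57, E29 alone among the 12 arrays detected 30, and 103 were detected on every array. Over all probes on the array, E29 detected 33.7%, the activated control 34.5% and the non-activated control 36.9%. The rule required a processed E29 value of at least 100, so these detection counts follow in part from the selection. Some members were readable in all conditions and others only with E29, and for the latter only a lower bound of the rise is known.

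**Figure D1:**
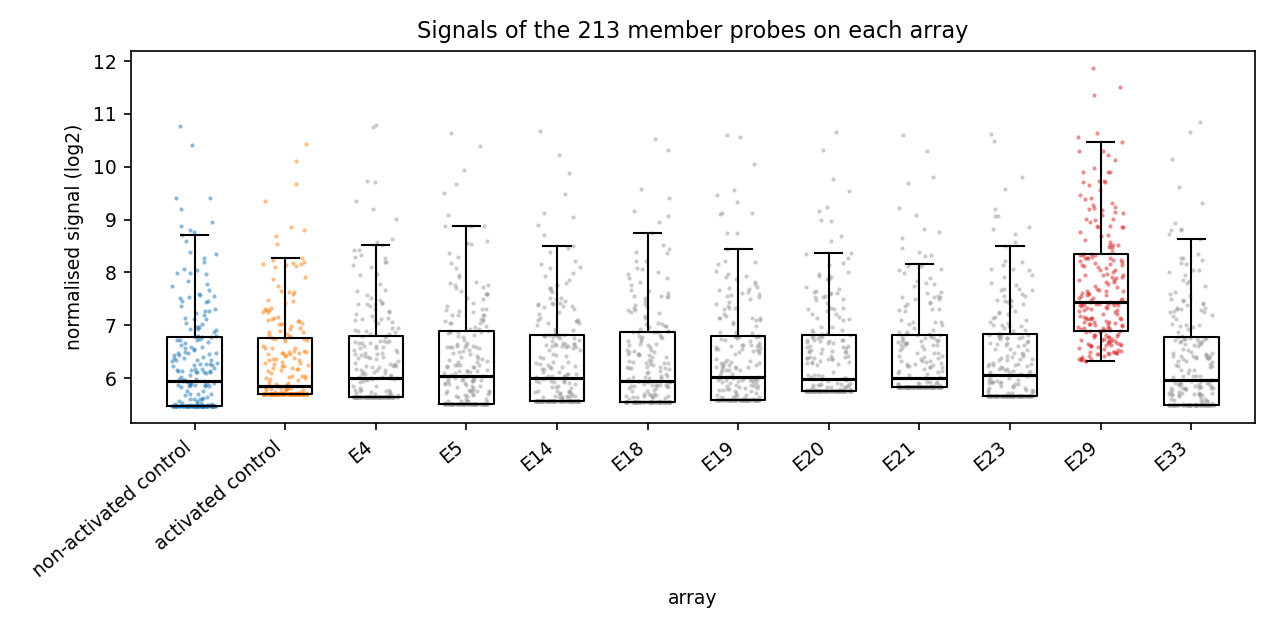
Normalised signal (log2, vertical axis) of the 213 members on each of the 12 arrays (horizontal axis); each point is a probe, boxes give the quartiles and median, and whiskers reach the last point within 1.5 box lengths. The E29 box is centred at 7.44, and the 11 other boxes are centred between 5.86 and 6.06.

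The 7 promoters printed here belong to members and non-members on which the account turns: Cxcl1, the member with the largest rise, 4 of the H4 histone genes that rose, and 2 of the H2A histone genes that fell. Each is the run of 120 bases before the gene's start, on the gene's own strand, from RefSeq on build GRCm38.p6. Capitals mark GGAATTTCC (an NF-κB-type motif) in Cxcl1, GGTCCG in the H4 genes, and CCAAT or its reverse complement ATTGG in the H2A genes. The intervals are chr5:90891125-90891244 on the plus strand for Cxcl1, chr13:23551669-23551788 on the minus strand for H4c6, chr13:22041363-22041482 on the minus strand for H4c9, chr13:21734914-21735033 on the plus strand for H4c11, chr13:21750554-21750673 on the minus strand for H4c12, chr13:23574261-23574380 on the plus strand for H2ac7 and chr13:22035644-22035763 on the minus strand for H2ac12.
Cxcl1: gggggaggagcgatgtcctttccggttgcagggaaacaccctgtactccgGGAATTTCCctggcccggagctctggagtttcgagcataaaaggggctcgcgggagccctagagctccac
H4c6: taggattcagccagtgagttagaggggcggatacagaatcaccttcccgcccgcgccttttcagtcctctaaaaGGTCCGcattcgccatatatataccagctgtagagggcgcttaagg
H4c9: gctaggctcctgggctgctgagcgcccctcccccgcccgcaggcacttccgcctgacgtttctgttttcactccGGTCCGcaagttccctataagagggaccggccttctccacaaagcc
H4c11: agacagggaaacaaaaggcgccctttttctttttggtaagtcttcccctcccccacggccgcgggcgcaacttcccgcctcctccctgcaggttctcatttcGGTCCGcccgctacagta
H4c12: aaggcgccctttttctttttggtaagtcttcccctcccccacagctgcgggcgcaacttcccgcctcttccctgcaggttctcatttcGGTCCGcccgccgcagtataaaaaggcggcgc
H2ac7: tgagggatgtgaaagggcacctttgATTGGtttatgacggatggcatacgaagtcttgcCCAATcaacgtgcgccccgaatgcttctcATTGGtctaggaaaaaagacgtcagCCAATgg
H2ac12: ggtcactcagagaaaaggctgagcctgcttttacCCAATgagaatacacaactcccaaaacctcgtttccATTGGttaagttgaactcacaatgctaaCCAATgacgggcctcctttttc

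Among chemokines, cytokines and other immune effectors, 15 genes were members, and Cxcl1 stood first. Cxcl1 encodes a chemokine that attracts neutrophils. Its probe was not detected on either control or on any of the 9 other compound arrays, and it read 9.72 on E29. That is at least 16.2-fold above the activated control and at least 19-fold above the non-activated control. Cxcl1 thus appeared on 1 array of 12, and activation without E29 did not bring it above the detection limit.

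Il23a, the p19 subunit of interleukin-23, was likewise detected on E29 alone, at 7.65, at least 3.88-fold above the activated control. Oas1d and Oas1c, members of the oligoadenylate synthetase gene family, were detected on neither control and read 7.38 and 6.72 on E29. Ifitm1, an interferon-induced transmembrane protein, read 7.12 and 6.62 on its 2 member probes and was detected on neither control. By these probes, the genes stayed under the detection limit in cells given LPS and IFN-γ alone.

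Neurl3, a ubiquitin ligase known from inflamed lung and grouped with the immune effectors, was readable without E29. Its brighter member probe read 6.25 on the non-activated control, 6.90 on the activated control and 9.24 on E29, with the 9 other compounds between 5.94 and 6.80. Its second member probe read 6.16 on the activated control and 8.52 on E29, a 5.17-fold rise. Both probes of this gene placed E29 above every other array.

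Adamts4, a protease that cleaves aggrecan, was not detected on either control and read 7.72 on E29, at least 4.06-fold above the activated control. P2ry13, a purinergic receptor listed among homeostatic microglial genes, read 6.12 on the non-activated control, was not detected on the activated control and read 7.60 on E29. Of 5 detected genes on that list, P2ry13 was at least 2-fold above both controls and Mertk at least 2-fold below both. The shares over all tested probes were 2.02% and 3.43%. Mertk read 6.96, 8.84 and 5.86 on the non-activated control, the activated control and E29, and the list's median against the activated control was 0.0055. Zc3h12a (Regnase-1, an RNase that degrades cytokine mRNAs) read 6.36 on the activated control and 7.38 on E29. A brighter Zc3h12a probe outside the members read 6.14 on the non-activated control, 8.46 on the activated control and 9.41 on E29, so by that probe the gene was not neutral to activation. Tnfsf9 (4-1BB ligand) read 6.03 on the activated control and 7.02 on E29. Ltc4s, which makes leukotriene C4, read 6.96, 6.95 and 8.13 on the non-activated control, the activated control and E29. On their member probes these genes read higher with E29 than on either control, as the rule required.

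Among transcription factors (11 genes), Atf2 had the largest rise. Atf2 encodes a bZIP factor that is phosphorylated by stress-activated kinases and pairs with Jun proteins. It read 5.96 on the non-activated control, 6.35 on the activated control and 9.02 on E29, and on the 9 other compounds its lowest, median and highest values were 6.03, 6.61 and 6.80. E29 was 6.36-fold above the activated control and lay above all 11 other arrays. A second member probe of Atf2 was not detected on either control and read 8.04 on E29, and another probe, which was not a member, read 8.94, 9.27 and 10.4 on the non-activated control, the activated control and E29.

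Fosb and Maff are bZIP genes of the immediate early class, which are switched on within minutes of a stimulus. Fosb was detected on E29 only, at 7.41, and Maff read 6.61 on its member probe, which neither control detected. A brighter Maff probe outside the members read 7.06 on the activated control and 8.91 on E29, and it was not detected on the non-activated control. Of 15 genes detected on the immediate early list, Fosb and Maff were at least 2-fold above both controls and Jun at least 2-fold below both, beside 2.02% and 3.43% of all tested probes, and the list's median against the activated control was -0.50. Over all tested probes that median was 0.091, which is also the value of any probe at the detection floor on both E29 and the activated control.

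Creb1, the cAMP-response factor, was detected on neither control and read 6.78 on E29. Nfat5, which governs the response to osmotic stress, read 5.84 on the activated control and 7.16 on E29. Rb1, the retinoblastoma repressor of E2F, read 6.62 and 6.57 on the controls and 7.82 on E29. Dlx1, a homeobox factor of forebrain neurons, and Ctcfl, a CTCF paralogue of the germ line, were detected on neither control and read 7.66 and 7.43. Dlx1 was detected on no other array, while Ctcfl was detected on 7 of the 9 other compound arrays.

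The transcription elongation and polymerase group held 5 genes. Hexim1 encodes the protein that, with 7SK RNA, holds the elongation kinase P-TEFb inactive, and Ccnt1 encodes cyclin T1, the regulatory subunit of that kinase. Hexim1 read 6.06 on the non-activated control, was not detected on the activated control and read 8.27 on E29, at least 5.94-fold above the activated control and 4.62-fold above the non-activated control. Among the 9 other compounds it was detected on 1. Ccnt1 read 7.19, 7.15 and 8.29 on the non-activated control, the activated control and E29, with the other compounds between 7.20 and 7.55.

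Both the inhibitor and the cyclin of P-TEFb were therefore higher with E29. On a list of 11 chromatin and elongation genes, 7 were detected, and these 2 were at least 2-fold above both controls, beside 2.02% of all tested probes; the list's median difference from the activated control was 0.59. The kinase itself, Cdk9, is no member, and read 7.86, 7.84 and 8.32. Taf13, a subunit of TFIID, read 8.88 and 8.19 on the controls and 10.3 on E29. Polr2k, a small subunit shared by RNA polymerases, read 6.27, 6.19 and 7.78, and both member probes of Twistnb, an RNA polymerase I subunit, were at least 2-fold higher with E29 than with either control.

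RNA processing and RNA binding held 10 genes with a median smaller rise of 1.62, as log2. Cirbp, the cold-inducible RNA-binding protein, read 5.70 on the non-activated control, was detected on no other array but E29, and read 8.11 there. Clp1, an RNA kinase of the 3' end processing and tRNA splicing machinery, read 6.15 and 6.61 on the controls and 8.69 on E29, 4.25-fold above the activated control. Rbm15, which guides the RNA adenosine methylation complex, read 6.48, 5.98 and 8.39. Each of these 3 stood above all other arrays on E29.

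Ptbp1, the polypyrimidine tract binding repressor of exons, had 2 member probes. The brighter read 10.8 on the non-activated control, 10.4 on the activated control and 11.9 on E29, and the fainter was detected on neither control and read 7.39. Luc7l, a U1 snRNP factor, read 5.68 on the non-activated control and 7.32 on E29, but another probe of Luc7l read 8.66, 8.41 and 8.76 and was only 0.098 higher than the non-activated control, as log2. The member probe of Slu7, a second-step splicing factor, was detected on neither control and read 7.01, and another Slu7 probe read 5.77 on the non-activated control and 6.51 on E29.

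The chromatin regulator group held 3 genes, whose rises differed widely. Ezh2, the Polycomb enzyme that methylates histone H3, read 7.46 on the non-activated control, 7.49 on the activated control and 9.97 on E29. On the 9 other compounds it lay between 7.26 and 7.55. E29 was 5.59-fold above the activated control, and the 11 other arrays lay within a narrow band. Chd4, a remodeller of the NuRD complex, read 6.502, 6.49 and 7.58, and Cbx1, a heterochromatin protein, was detected on neither control and read 6.36.

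**Figure D2:**
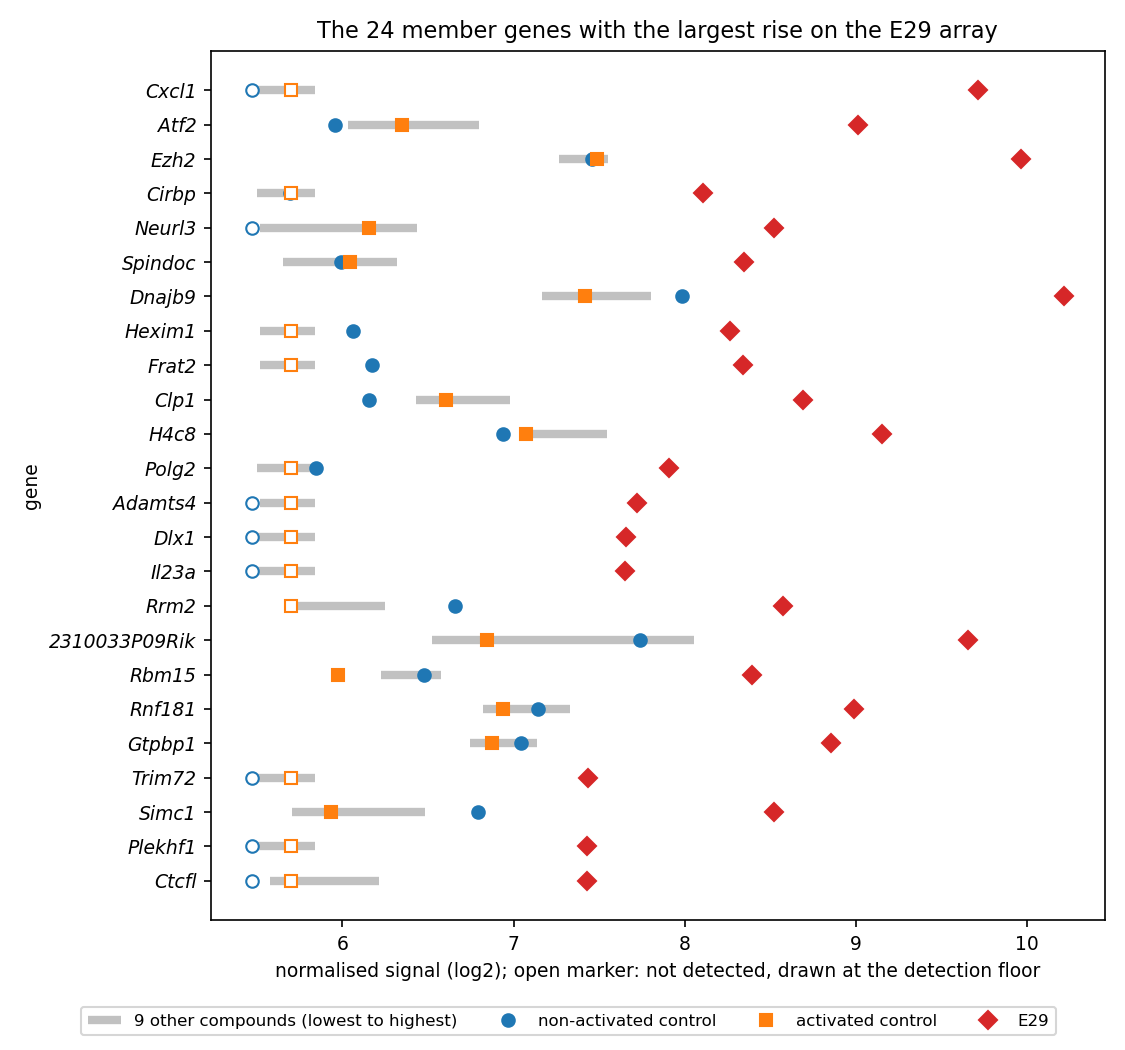
Normalised signal (log2, horizontal axis) of the 24 member genes with the largest rise (vertical axis), on the non-activated control, the activated control and E29, with a grey bar from the lowest to the highest of the 9 other compounds; open markers were not detected and are drawn at the detection floor. Each E29 marker lies to the right of every other marker and bar of its row, from 7.43 for Ctcfl to 10.2 for Dnajb9.

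The clustered histone genes, which are transcribed with DNA replication and whose mRNAs end in a stem-loop instead of a poly(A) tail, gave 12 members: H2ac6, H2ac8, H2bc6, H3c1, H3c4, H3c6, H4c6, H4c8, H4c9, H4c11, H4c12 and H4c18. H4c8 read 6.94 on the non-activated control, 7.07 on the activated control and 9.15 on E29, with the other compounds between 7.04 and 7.55. H3c1 read 6.17, 6.48 and 8.15, and H4c11 read 6.77, 6.57 and 8.24. On E29 the 12 members lay between 7.07 and 9.42. Histone genes of a class are near-identical copies, so a probe may read more than 1 of them.

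The histone classes did not move together. The array holds 50 probes of clustered histone genes, of which 37 were detected on E29 or a control; 14 were at least 2-fold above both controls and 7 at least 2-fold below both, against 2.02% and 3.43% of all tested probes. For H4, 6 of 7 tested probes were up and all 6 are members. For H3, 5 of 7 were up. For H2B, 1 of 11 was up, although all 11 were above both controls. For H2A, 2 of 12 were up and 7 were down.

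The 7 H2A probes that fell belong to H2ac7, H2ac10, H2ac11, H2ac12, H2ac15, H2ac22 and H2ac24. H2ac7 read 12.0 on the non-activated control, 10.9 on the activated control and 8.76 on E29, with the other compounds between 10.3 and 11.01, so E29 was 4.40-fold below the activated control. H2ac12 read 11.5, 10.2 and 8.41. The 7 were 3.07- to 4.40-fold lower with E29 than on the activated control; H2ac11 was not detected with E29, so its fall is a bound. The activated minus the non-activated control had a median of -1.06 over the 12 tested H2A probes, compared with -0.085 for H2B, 0.45 for H3 and -0.41 for H4.

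The median difference between E29 and the activated control was thus -1.70 for H2A, 0.67 for H2B, 1.21 for H3 and 1.73 for H4. The H4 genes also gained against the non-activated control, by a median of 1.16, whereas H2A fell by 2.86 on the log2 scale. H2ac6 and H2ac8, the 2 H2A members, were the only tested H2A probes at least 2-fold above both controls, and H2ac18 was higher by less (0.53 and 0.21 above the activated and non-activated controls). H2ac6 was detected on E29 alone at 7.14, and H2ac8 read 5.98, 5.83 and 7.22.

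**Figure D3:**
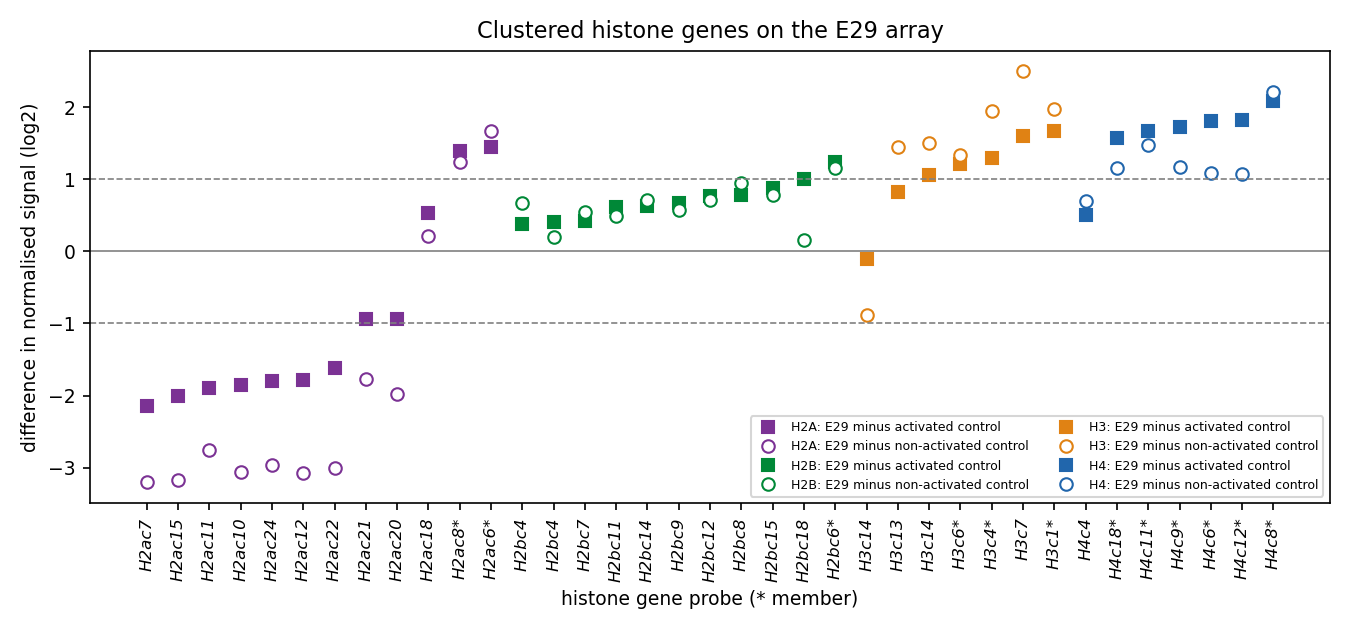
Difference in normalised signal (log2, vertical axis) between E29 and each control for the 37 tested probes of clustered histone genes (horizontal axis), grouped by class; squares are against the activated control, circles against the non-activated control, dashed lines mark 2-fold and asterisks mark members. All 6 H4 members lie above the upper dashed line and 7 H2A probes lie below the lower one.

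The promoters printed above also differ between these classes. In the 250 bases before the start, on either strand, GGTCCG was found in 5 of 6 windows of the H4 members and in 0 of 7 windows of the falling H2A genes. Its share was 11.6% of 172 windows of member genes and 8.99% of 16534 windows of genes on the array. This run of letters was chosen after the promoters had been read. CCAAT (reverse complement ATTGG) was found in 7 of 7 falling H2A windows and 0 of 6 H4 windows, beside 45.3% of member windows and 35.0% of all windows. No searched motif contains another, some genes have several windows, and a match describes letters only. Both comparisons are between histone classes, so class and direction of change with E29 cannot be told apart. No separate count was made for the H2A members, H2B or H3.

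Over all members with a promoter (144 of the 174 genes), GC-box letters GGGCGG were in 59.9% of windows, against 45.8% of all windows, TGACGTCA, the cAMP response element, in 4.65% against 2.03%, and TATAAA in 10.5% against 10.9%. GGAATTTCC was in 2 member windows, that of Cxcl1 among them, or 1.16%, against 0.351% of all windows. These shares describe the members and were not tested.

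DNA replication, repair and mitosis held 16 genes. Rrm2, the regulated subunit of ribonucleotide reductase, which makes deoxynucleotides, read 6.66 on the non-activated control, was not detected on the activated control and read 8.58 on E29. Its second member probe read 6.26, 6.03 and 7.86. On E29 both probes exceeded every other array, at least 7.36-fold and 3.57-fold above the activated control.

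Polg2, the accessory subunit of mitochondrial DNA polymerase, read 5.84 on the non-activated control and 7.91 on E29 and was detected on no other array. Ung, which removes uracil from DNA, read 7.57 and 7.02 on the controls and 9.20 on E29. Cenpn, a centromere protein, read 6.79, 6.23 and 8.33. Mcm3, a subunit of the replicative helicase, read 6.43, 6.44 and 7.75, and Rpa2, which coats single-stranded DNA, read 7.02, 7.05 and 8.28.

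Of the 14 detected genes on the DNA replication list, Mcm3 and Rrm2 were at least 2-fold above both controls and none was 2-fold below both, beside 2.02% and 3.43% of all tested probes, while 13 had a mean difference from the activated control above 0, with a median of 0.60. Pcna, the polymerase clamp, read 8.56, 7.98 and 9.26, and Mcm7, another helicase subunit, read 6.10, 6.46 and 7.41; neither reached 2-fold above both. Of 8 detected mitotic genes none was 2-fold above both controls.

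Ubiquitin ligases gave 6 genes and 11 probes, because several genes had many member probes. Rnf167, an endosomal and lysosomal ligase, had 4 member probes, which read 7.91, 7.85, 8.52 and 6.46 on E29, and its brightest read 6.93 and 7.31 on the controls. Rnf181 read 7.14, 6.94 and 8.99 on 1 probe and 9.19, 8.80 and 10.6 on the other. Fbxo33, an F-box subunit, read 7.55, 6.98 and 9.19. A probe of Rnf167 outside the members read 6.93, 7.38 and 8.31, higher with E29 but short of 2-fold above the activated control.

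In lipid and intermediary metabolism (11 genes), Dgat2 and Dgat1, the enzymes of the last step of triglyceride synthesis, were both members. Dgat2 read 8.72 on the non-activated control, 8.14 on the activated control and 10.3 on E29, and Dgat1 was not detected, 5.92 and 7.34. Pfkm, the muscle form of phosphofructokinase, read 7.11, 7.12 and 8.61 on its brighter member probe. Pts, of tetrahydrobiopterin synthesis, and Gchfr, which regulates the first enzyme of that pathway, read 7.39 and 7.55 on E29 against 6.31 and 6.49 on the activated control. Both enzymes of the last step to triglyceride and 2 genes of the biopterin pathway were thus among the members by these probes. A brighter Pts probe outside the members was 0.44 above the nearer control with E29, as log2, and a fainter Gchfr probe 0.34.

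The cholesterol list, by contrast, had no member. Of its 13 detected genes 5 were at least 2-fold below both controls with E29 on at least 1 probe, namely Cyp51, Insig1, Lss, Msmo1 and Sqle, beside 3.43% of all tested probes, and the list's median against the activated control was -0.29. Another Insig1 probe differed by only -0.48 and -0.68 from the activated and non-activated controls.

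Of the stress genes, Dnajb9, an endoplasmic reticulum co-chaperone that is a target of the unfolded protein response, rose most. It read 7.98 on the non-activated control, 7.42 on the activated control and 10.2 on E29, which was 6.97-fold and 4.71-fold above the activated and non-activated controls. The other compounds lay between 7.17 and 7.80. Of 15 detected genes on the list of endoplasmic reticulum chaperones, Dnajb9 was at least 2-fold above both controls and Xbp1, a master factor of that response, at least 2-fold below both, beside 2.02% and 3.43% of all tested probes. The list's median against the activated control was 0.19.

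Ddit4, an inhibitor of mTORC1, read 5.48 on the non-activated control, was not detected on the activated control and read 6.97 on E29. It was the 1 gene of 21 detected on the ATF4 list that was 2-fold above both controls, while Atf4 and Cebpb were 2-fold below both, beside 2.02% and 3.43% of all tested probes. Ulk1, the kinase that starts autophagy, read 5.84 on the non-activated control, was not detected on the activated control and read 7.14 on E29. Another Ulk1 probe, at the detection floor on both controls, read 6.28 on E29, at least 0.58 above the activated control. Of 18 detected genes on the lysosome and autophagy list, Gabarapl1 and Ulk1 were 2-fold above both controls and none was 2-fold below both, beside the same shares. The list's median against the activated control was 0.29. Glrx, a thiol redox enzyme, read 10.4 and 10.1 on the controls and 11.5 on E29. The member probe of Prdx2, another such enzyme, read 6.24 on the non-activated control, was not detected on the activated control and read 7.30 on E29, while its other probes were 0.16 and 0.40 above the nearer control.

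None of the 15 detected Nrf2 targets, 11 heat shock genes or 28 proteasome subunits was 2-fold above or below both controls; the shares over all tested probes, 2.02% and 3.43%, would give few on lists of this size. In all, 12 member genes appeared on 9 of the 21 lists, out of 292 listed genes on the array: Ddit4, Dnajb9, Fosb, Maff, Ulk1, H3c1, H4c8, Mcm3, Rrm2, P2ry13, Hexim1 and Ccnt1. The other member genes are on none of the lists. Members made up 0.829% of all probes on the array, which is a share of probes and not of genes. The lists were chosen with earlier results of these data known, so this count is a description only.

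Membrane traffic gave 5 genes. Plekhf1, a phosphoinositide-binding protein of endosomes, read 7.43 on E29 and was detected on no other array by that probe. Borcs6, a subunit of the BORC complex that positions lysosomes, read 8.35, 8.18 and 9.73 on 1 probe and 7.60, 7.63 and 8.86 on the other. Outside the role groups, Spindoc, a partner of the histone reader Spindlin 1, read 5.99, 6.04 and 8.35, and Frat2, an inhibitor of the kinase GSK-3, read 6.17 on the non-activated control, was not detected on the activated control and read 8.34. Both of these stood above all 9 other compounds.

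The remaining genes with large rises are less well placed. The gene 2310033P09Rik read 7.74, 6.84 and 9.66, Gtpbp1, a GTPase linked to mRNA decay and translation, read 7.04, 6.88 and 8.86, and Simc1, which binds SUMO, read 6.79, 5.93 and 8.52. Trim72, a membrane repair protein of muscle, was detected on E29 alone, at 7.43.

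Other probes of the same genes went through the same rule and did not meet it. Their counts were therefore shaped by the selection and are a description only. Genes with 2 or more member probes numbered 21, and their 44 member probes are left out here. The 174 genes have 126 further probes on the array, and 80 of these, from 52 genes, were detected on E29 or a control. With E29, 67 of the 80 were above both controls, 36 were at least 1.5-fold above both and 7 at least 2-fold above both, beside 41.1%, 8.92% and 2.02% of all tested probes; the median smaller difference was 0.55. The 7 belong to Pfkm, Rbm38, Acot8, Atf2, Cenpn, Nfat5 and Maff. Maff had the largest, 1.84, and Nfat5 followed with 1.34.

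The other 13 probes were not above both controls. Actb, the cytoskeletal actin, is the clearest case. Its 2 member probes were detected on neither control and read 6.70 and 6.69 on E29, whereas its 3 other probes read 13.2, 13.9 and 13.97 on E29 and 13.8, 13.7 and 14.04 on the activated control. Timm9, a mitochondrial import chaperone, had 3 further probes with smaller differences of -1.01, -0.74 and -0.33, and Cd44, a hyaluronan receptor, had further probes at -0.98, -0.0046 and 0.42. For these genes a member probe and the gene's other probes gave different readings, and which transcript each probe reads was not analysed here.

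**Figure D4:**
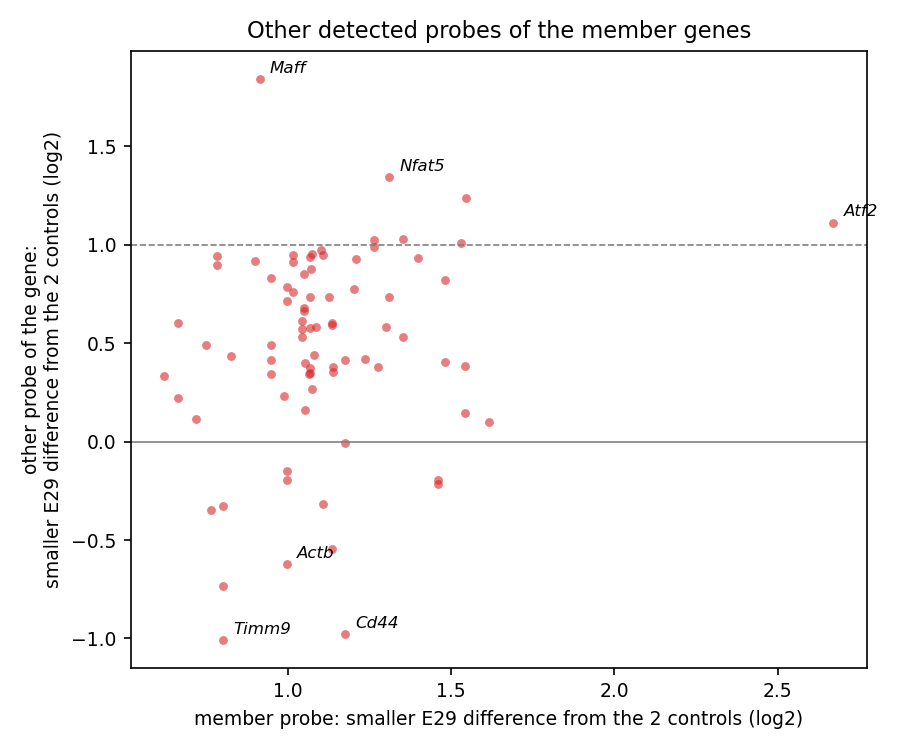
For the 80 detected probes of member genes that are not members themselves, the smaller E29 difference from the 2 controls (log2, vertical axis) is plotted against that of the gene's member probe (log2, horizontal axis, the largest where there are several). Most points lie above 0 and 7 lie above the dashed line at 2-fold; Timm9 and Cd44 lie lowest, at -1.01 and -0.98.

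The members were also compared across the 9 other compounds. E29 was above the highest of these 9 arrays for 212 of 213 members, against 37.1% of 10341 probes, and at least 2-fold above it for 98, against 1.60%; E29 was part of the rule, so these counts describe the members. For each other compound, the reference was the median of the remaining 8 compounds, E29 and the controls left out. On at least 1 of the 9 arrays, 5 members were at least 2-fold from that reference. The matching share of all probes for any of the 9 arrays was not counted, and the shares for each array follow. At least 1 of the 9 arrays detected 177 of the 213 members, and the rest lay on the detection floor there.

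The counts above and below were 2 and 0 for E4, 1 and 0 for E5, 0 and 1 for E14, 0 and 2 for E18, 1 and 0 for E19, 1 and 0 for E20, 0 and 1 for E21, 0 and 0 for E23 and 2 and 2 for E33. Over all 10183 probes tested, the shares above and below were 0.226% and 0.0196% for E4, 0.167% and 0.137% for E5, 0.00982% and 0.0295% for E14, 0.0295% and 0.0491% for E18, 0.285% and 0.462% for E19, 0.137% and 0.108% for E20, 0.0884% and 0.00982% for E21, 0.0295% and 0.00982% for E23, and 0.560% and 0.619% for E33. Counts of 0 to 2 members are too few to read against shares of this size, and 2 unnamed probes made up 10 of the 13 instances.

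Ddit4 read 6.61 with E4, 1.03 above the reference, and it was detected on 1 more of the other compound arrays. With E33, 2310033P09Rik read 8.05, 1.06 above the reference, and Tnfsf9 read 6.73, 1.02 above it. For all 3 genes the E29 reading was higher still.

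The unnamed probe ILMN_2735350 is the exception to the E29 pattern. It read 7.32 on the non-activated control, 6.19 on the activated control and 8.47 on E29, but 9.33 with E19, 8.60 with E5, 8.53 with E4 and 8.36 with E20. It lay at 6.60, 6.61 and 6.77 with E18, E21 and E33. The unnamed probe ILMN_3093150 varied in the same range of compounds: it read 9.71 with E4 and 9.72 with E29, and 7.93, 7.89 and 8.01 with E14, E18 and E33, where it was at least 2-fold under the reference. Both probes were at least 2-fold from the reference on 3 or more of the other compound arrays.

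**Figure D5:**
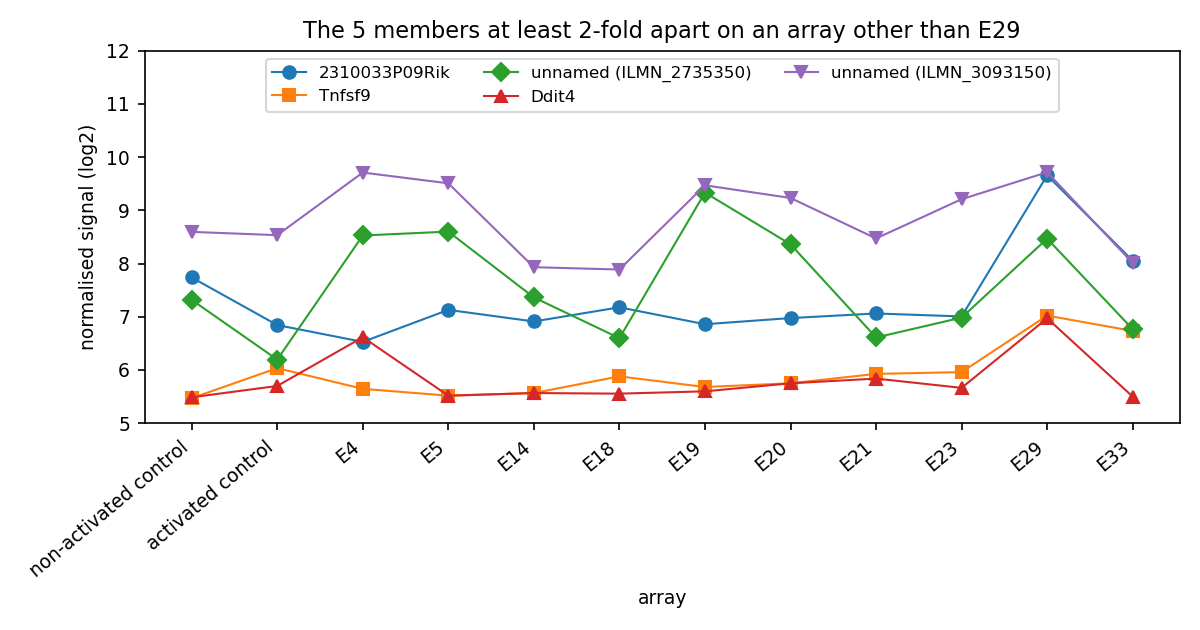
Normalised signal (log2, vertical axis) on the 12 arrays (horizontal axis) of the 5 members that were at least 2-fold from the reference on an array other than E29. The 3 named genes are highest with E29, whereas ILMN_2735350 is highest with E19, at 9.33.

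The median difference of all members from the reference ran from -0.12 for E33 to 0.16 for E21. These arrays also had detection floors of 5.498 and 5.84, respectively, the lowest and the highest of the 9, and faint members rest on the floor. Over the 103 members detected on all 12 arrays the medians ran from -0.074 for E33 to 0.050 for E19.

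The median of the 11 activated arrays lay within 2-fold of the non-activated control on the processed values, as the rule required. The activated control alone was not held to this limit, and Snn read 6.72 on the non-activated control and 8.17 on the activated control. On the normalised scale the median of the activated arrays minus the non-activated control had a median of 0.17, with a range of -0.86 to 1.01, and 212 of 213 stayed within the band of 1. The value 0.17 is also a gap between detection floors, carried by members detected on E29 alone, such as Cxcl1. Neither control detected 57 members, so for these the floor stands in place of a reading on both controls. By the median of the activated arrays, 13 members were at least 1.5-fold higher than the non-activated control and 11 at least 1.5-fold lower. Simc1 and Rrm2, at -0.86 and -0.80, were among those lower with activation, and their E29 readings exceeded the non-activated control; Atf2 and Clp1, at 0.66 and 0.62, were higher with activation and higher again with E29.

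The same rule turned round found 321 activation-neutral probes lowered by E29. Their median level fell from 8.14 on the activated control to 6.48 on E29. Of the 7 falling H2A probes, 1 is in that set.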

How the data were processed

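Each of 12 conditions had 1 array, grouped by the labels. The deposited scanner table holds, per the file headers, a mean bead intensity and a detection p-value for each of 25697 probes. The authors also deposited processed intensity values with array medians of 14.9 to 15.0, and a lowest value of 10 for 45.1% to 45.2% of probes. GenomeStudio 2010.3 is named per the submitters' processing notes; their normalisation method is not given in the labels or headers. The selection used the processed values.

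Levels came from the scanner table by neqc in limma 3.58.1 (R 4.3.3), offset 16. A probe was detected at a detection p-value under 0.01, and each array's floor was its lowest normalised signal among detected probes. A probe was tested where an array compared detected it. A listed gene was counted as 2-fold above or below both controls if at least 1 of its probes was. The shares printed beside these counts are of probes, so the units differ. Summaries used matplotlib 3.10.9, pandas 2.3.3 and numpy 2.4.6 in Python 3.11.15; the counting was tested on simulated data. Of all probes, 23978 had 1 gene symbol in the platform annotation, 0 had several and 1719 had none; 23962 had a gene ID in RefSeq.

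The members, the 21 gene lists and the role groups were chosen with earlier results of these data known, and the role groups after the members' values were seen. Named were the 24 genes with the largest smaller difference, every member on a list, the probes at the threshold, and up to 2 members farthest above and below the reference in each other compound. Genes named for their role, and the non-members, were chosen after their values were seen. Alternatives are below.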

Additional observations from a re-analysis of the deposited data

How the results depend on the processing

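No paired analysis was possible because there was 1 array for each condition. The number of members, 213, became 346 with a floor of 20, 130 with a floor of 100, 54 with a threshold of 1.5 and 63 without background correction (53 of them members). It was 175 with a band of 0.5, 191 on neqc values (167 of them members), and 213 among probes detected on E29. Requiring E29 also to be 2-fold above the 9 other compounds, an alternative chosen after seeing the data, left 119. The median rise over the activated control, 1.25, was 1.38 on processed values, 0.73 without background correction, 1.00 with an offset of 50 and 1.45 with a detection limit of 0.05. It was 1.35 over the members detected on all 12 arrays, again chosen after seeing the data. For the other compounds, members at least 2-fold from the reference in either direction numbered 0 without background correction for E4, E20, E21 and E33 and 1 for E18. Against the activated control they numbered 0 for E18 and E21 and 3 for E19. At 1.5-fold they numbered 3 for E5, 2 for E14, 4 for E18, 6 for E19, 3 for E20, 2 for E21, 1 for E23 and 19 for E33, and on processed values 7 for E33. The median over the members was 0 on processed values for E5, E20, E21 and E33, and 0.066 for E21 without background correction. Over the members detected on all 12 arrays, also chosen after seeing the data, it was 0.0072 for E5, which reversed its sign, 0.0035 for E20 and 0.0050 for E21. The 24 named genes stayed above both controls in all 72 alternatives run, by 0.86 to 2.66 without background correction. These alternatives reprocessed the same arrays that chose the genes, so their staying above was largely fixed by the selection. The cause of the shifts between settings was not tested. With 1 array per condition, array, culture and compound cannot be told apart, and signal over background limits the faint members, 57 of which neither control detected.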
